A study of Homo sapiens with 6 samples.

Results

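The gene-desert elements described here are peaks of transcription initiation that lay outside every annotated gene and more than 50 kb from every annotated transcript start. They were taken from 3 lists of dREG peaks of K562, an established human leukaemia cell line, on chromosomes 1 to 22 and X, against the GENCODE release 29 annotation of build GRCh38. The rule used only position, and no score, p-value or overlap between lists. It found 388 of the 24707 peaks of PRO-seq 1M, 881 of the 38177 of qPRO-seq 1M and 211 of the 15562 of qPRO-seq 250k. Where 3 values follow each other below, they stand for the lists in that order. Desert peaks of the 3 lists that overlapped by at least 1 bp were joined, which gave 887 gene-desert regions. All peaks of the 3 lists, joined separately in the same way, gave 34308 regions.

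Precision run-on sequencing (PRO-seq) lets engaged RNA polymerases add a biotin-labelled nucleotide to their nascent RNA, which is then captured and sequenced. Active promoters and enhancers give short divergent transcripts on the 2 strands, and dREG is a classifier that finds that pattern and scores it. Enhancers can lie far from the gene they act on, and large gene-free intervals flank many developmental regulators. An element far from every annotated start may be an enhancer, the start of an RNA that the annotation lacks, or a gene of another polymerase. A peak alone does not tell these apart.

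All cells were untreated K562, and each group was made from 2 replicates at least 3 passages apart. PRO-seq 1M followed the published protocol, with 3 affinity purifications, on 1M permeabilized cells per library. qPRO-seq 1M followed a quicker protocol with 1 purification on the same input, and qPRO-seq 250k used that protocol on 250k cells, with 14 cycles of PCR in place of 11. Each group had 1 list for both replicates, so no spread between replicates can be given, and the depth behind each list is unknown. The labels call K562 lymphoblastoid. A peak within 500 bp of a start was found at 10 to 12 of 12 erythroid and megakaryocytic marker genes across the lists, against 1 to 2 of 10 B-lymphoid and 1 to 2 of 10 T-lymphoid ones.

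Of the 887 regions, 18 overlapped the window around a RefSeq gene start, 250 bases before to 50 after, although GENCODE release 29 has no start within 50 kb of them. These were 21 windows, all of long noncoding RNA genes, and they are the regions for which sequence could be read. The sequences of 8 of them are shown, 7 at the regions found in all 3 lists and 1 from the NPVF to NFE2L3 desert described further on. Sequences are from RefSeq on build GRCh38.p14, 5′ to 3′ on the gene's own strand, with the gene's first base at position 251. Capitals mark matches to 11 motifs, searched on both strands. They were AGATAA or TGATAA for GATA factors, TGANTCA for AP-1, CCGGAAGT for ETS factors, GGGCGGGG for SP factors, CCACACCC for KLF factors, TGTGGT for RUNX factors, and CCANNAGGG or CCANNAGGT for CTCF. The others were TATAAA for the TATA box, ACCAAT or GCCAAT for NF-Y, GGTTCGA for the core of the tRNA B box, and CACGTG for the E box. The last 3 motifs were chosen after the sequences were seen.
LOC105375049 (chr6:40164436-40164735, plus strand, between MOCS1 and LRFN2): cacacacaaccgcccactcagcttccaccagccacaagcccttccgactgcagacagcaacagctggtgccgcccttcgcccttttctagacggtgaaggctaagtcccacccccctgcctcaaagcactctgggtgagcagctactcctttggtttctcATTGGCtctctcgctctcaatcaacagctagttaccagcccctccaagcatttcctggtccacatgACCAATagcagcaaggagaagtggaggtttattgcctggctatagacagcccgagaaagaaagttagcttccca
LOC105375103 (chr6:57800236-57800535, minus strand, between PRIM2 and KHDRBS2): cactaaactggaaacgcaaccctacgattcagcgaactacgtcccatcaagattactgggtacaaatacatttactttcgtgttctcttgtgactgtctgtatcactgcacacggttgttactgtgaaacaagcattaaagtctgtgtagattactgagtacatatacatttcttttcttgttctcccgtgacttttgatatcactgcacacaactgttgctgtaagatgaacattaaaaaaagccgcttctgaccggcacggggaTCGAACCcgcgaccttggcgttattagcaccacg
LOC105377950 (chr6:112879867-112880166, plus strand, between RFPL4B and MARCKS): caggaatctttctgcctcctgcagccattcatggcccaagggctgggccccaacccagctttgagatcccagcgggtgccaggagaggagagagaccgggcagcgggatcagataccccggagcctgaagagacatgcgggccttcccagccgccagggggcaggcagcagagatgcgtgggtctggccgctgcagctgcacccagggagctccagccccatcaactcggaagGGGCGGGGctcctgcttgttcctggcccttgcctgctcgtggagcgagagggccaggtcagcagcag
LOC105376483 (chr10:31133650-31133949, plus strand, between ZNF438 and ZEB1): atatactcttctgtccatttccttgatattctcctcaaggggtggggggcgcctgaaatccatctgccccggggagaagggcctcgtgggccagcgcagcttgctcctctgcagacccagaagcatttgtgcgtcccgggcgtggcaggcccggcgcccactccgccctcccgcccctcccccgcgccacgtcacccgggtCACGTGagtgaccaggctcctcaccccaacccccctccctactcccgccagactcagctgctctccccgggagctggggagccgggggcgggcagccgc
LOC105369367 (chr11:69234885-69235184, minus strand, between TPCN2 and MYEOV): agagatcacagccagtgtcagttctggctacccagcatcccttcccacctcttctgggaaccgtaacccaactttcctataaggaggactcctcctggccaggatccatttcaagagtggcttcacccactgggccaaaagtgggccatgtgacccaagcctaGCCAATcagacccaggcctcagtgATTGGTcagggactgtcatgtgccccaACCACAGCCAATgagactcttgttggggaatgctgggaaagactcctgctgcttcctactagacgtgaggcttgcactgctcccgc
LOC124904682 (chr19:29093002-29093301, minus strand, between ZNF254 and UQCRFS1): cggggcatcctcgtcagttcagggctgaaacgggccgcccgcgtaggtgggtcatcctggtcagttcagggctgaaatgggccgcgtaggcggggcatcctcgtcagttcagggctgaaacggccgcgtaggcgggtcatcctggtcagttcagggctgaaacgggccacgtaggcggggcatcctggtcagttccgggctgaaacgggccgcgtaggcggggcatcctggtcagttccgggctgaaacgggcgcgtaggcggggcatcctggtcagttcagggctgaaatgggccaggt
NHIP (chr22:49052336-49052635, minus strand, between FAM19A5 and BRD1): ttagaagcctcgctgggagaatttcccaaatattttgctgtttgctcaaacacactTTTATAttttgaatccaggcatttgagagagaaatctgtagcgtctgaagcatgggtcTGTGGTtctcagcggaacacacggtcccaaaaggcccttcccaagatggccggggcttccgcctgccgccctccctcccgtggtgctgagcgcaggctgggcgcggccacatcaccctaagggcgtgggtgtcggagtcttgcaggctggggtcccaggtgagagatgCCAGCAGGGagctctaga
LOC100506236 (chr7:25833035-25833334, minus strand, between NPVF and NFE2L3): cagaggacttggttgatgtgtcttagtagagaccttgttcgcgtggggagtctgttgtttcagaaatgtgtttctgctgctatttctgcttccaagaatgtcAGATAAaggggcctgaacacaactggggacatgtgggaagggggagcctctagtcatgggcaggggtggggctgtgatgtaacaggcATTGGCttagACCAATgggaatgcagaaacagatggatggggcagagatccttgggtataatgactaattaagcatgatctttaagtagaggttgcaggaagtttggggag

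The windows share no single motif. LOC105369367 holds 3 NF-Y matches at positions 164, 188 and 221, with a RUNX match directly before the last, so that the 2 run together in capitals. LOC105375049 and LOC100506236 hold 2 NF-Y matches each, and LOC100506236 also holds a GATA match at position 103. NF-Y binds CCAAT boxes of promoters, and GATA1 is a master regulator of erythroid cells. Of the 21 windows, 6 held an NF-Y match (28.6%), against 21.8% of 34961 RefSeq start windows and 26.6% of the 12445 windows with a qPRO-seq 1M peak; 2 or more matches stood in 3 (14.3%), against 5.37% and 9.06%. A GATA match stood in 4 of the 21 (19.0%), against 16.3% of all windows and 7.43% of those with a peak, and an SP match in 1 (4.76%), against 22.8% and 40.1%. The median GC content of the 21 was 55.3%, that of all windows 58.7%, and that of windows with a peak 66.0%. With 21 windows these shares are a description, and a match is not evidence that a factor binds. The NF-Y motif was chosen after the sequences were seen, a choice that itself favours its shares in these windows.

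Several windows stand out by their own sequence. The window of LOC105375103 runs across the tRNA gene TRI-AAT1-1, and its capitals at position 267 are the B box core of that tRNA gene, read on the other strand. B boxes are internal promoter elements of RNA polymerase III, and a B box core was found in 0.864% of all windows. LOC124904682 is made of a tandemly repeated unit: shifted by 128 bases, it matched itself at 76.2% of positions, against a median best match of 35.3% over all windows. Reads of 37 nt may not be placed uniquely in such a repeat, and their placement was not tested. At LOC105376483, which starts at 31133900 on the plus strand, LOC105376482 starts at 31134192 or 31134204 on the minus strand within the same region, so the annotated genes run toward each other. An E box lies at position 202 of LOC105376483.

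The distance of the dREG centres from these starts varied. At LOC105369367 the centre was -17, -27 and -67 bp from the RefSeq start (negative values lie upstream). At LOC105377950 it was within 26 bp in each list. It was -145, -125 and -15 bp at LOC105375049 and -96, -46 and -116 bp at NHIP. In the region with 2 opposed genes it was 1, -59 and -79 bp from the start of LOC105376483. From the start of LOC105376482 at 31134204 it was 303, 363 and 383 bp downstream. Of the 18 regions, 7 were in all 3 lists (38.9%, Wilson 95% interval 20.3% to 61.4%), against 151 of the 869 regions at no such window (17.4%, 15% to 20.04%). The intervals do not overlap, but the smaller group holds 18 regions. The groups also differed in score, with median qPRO-seq 1M percentiles of 55.6 and 40.7, and were not compared at like score.

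RefSeq genes covered 208 of the 887 regions (23.4%), of which 190 overlapped a long noncoding RNA gene and 15 a protein-coding one. The remaining 679 lay outside RefSeq genes as well. Of the 208 regions, 51 were in all 3 lists (24.5%, 19.2% to 30.8%), against 107 of the 679 (15.8%, 13.2% to 18.7%). Here too the groups differed in score, with median qPRO-seq 1M percentiles of 47.0 and 39.6, and were not compared at like score.

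Transfer RNA genes, which RNA polymerase III transcribes, accounted for 5 regions. TRM-CAT4-2, a methionine tRNA gene, was in all 3 lists, at score percentiles of 51.7, 45.4 and 60.1. TRI-AAT1-1 was also in all 3, at 9.28, 31.8 and 22.6. TRE-TTC2-1 was in both 1M lists, at 70.8 and 86.1, TRQ-TTG4-1 was found by qPRO-seq 1M alone, and TRM-CAT5-2 by qPRO-seq 250k alone. A percentile here is the rank of the peak's deposited score within its own list, from 0 to 100, and says nothing of the signal in other lists. Of the 15 tRNA genes in the deserts, 3, 4 and 3 had a peak, against 51.9%, 61.9% and 47.9% of 443 tRNA genes genome-wide.

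The desert peaks took 1.57% of the PRO-seq 1M peaks (Wilson 95% interval 1.42% to 1.73%), 2.31% of the qPRO-seq 1M ones (2.16% to 2.46%) and 1.36% of the qPRO-seq 250k ones (1.19% to 1.55%). The share was highest in the longest list, and the intervals of the other 2 overlap. All intervals in the text are at 95% and cover counting error only; neighbouring peaks are not independent. With every list reduced to its 15562 highest-scored peaks, the shares were 1.27%, 1.84% and 1.36%.

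Per megabase of sequence that the rule allows, 502.1 Mb in all, there were 0.773, 1.75 and 0.420 desert peaks. The comparison class is intergenic peaks between 500 bp and 50 kb from a start, called nearer intergenic peaks, which numbered 3289, 6847 and 1750. Over their 799.1 Mb there were 4.12, 8.57 and 2.19 peaks per megabase. The deserts were thus the sparser sequence in each list, with exact Poisson intervals that do not overlap (for qPRO-seq 1M, 1.64 to 1.87 against 8.37 to 8.77). The megabases include unsequenced gaps.

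Distance from the nearest start had a median of 78.2, 79.9 and 78.8 kb, with a maximum of 810.1, 811.2 and 628.1 kb. At the edge of the rule, 58, 129 and 28 intergenic peaks lay 45 to 50 kb from a start, and 58, 123 and 31 lay 50 to 55 kb away. Peak widths had a median of 410, 410 and 400 bp, the same as in the nearer intergenic class. The median score percentile was 38.0, 40.8 and 39.0, close to the 36.9, 41.5 and 39.3 of the nearer intergenic peaks. Peaks within 500 bp of a start, called start-near peaks, had 58.9, 59.9 and 55.7.

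Another peak of the same list lay within 12.5 kb of 42.0%, 46.8% and 28.0% of the desert peaks. The rule itself keeps start-near peaks out of that distance, so these shares are not compared with those of other classes. Of the 887 joined regions, 510 had no other desert region within 12.5 kb, and 377 formed 150 clusters. The nearest start belonged to a long noncoding RNA gene for 333 regions (37.5%), a protein-coding gene for 234 (26.4%), a pseudogene for 229 (25.8%) and a small or other RNA gene for 91 (10.3%). Those classes make up 27.5%, 34.2%, 25.5% and 12.8% of annotated genes.

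Recovery between lists was uneven. Of the 388 PRO-seq 1M desert peaks, 345 had an overlapping peak in the qPRO-seq 1M list (88.9%, 85.4% to 91.7%), against 90.6% of all PRO-seq 1M peaks. In the other direction 355 of 881 were overlapped (40.3%, 37.1% to 43.6%), against 63.3% of all qPRO-seq 1M peaks. The qPRO-seq 250k list overlapped 171 of the PRO-seq 1M desert peaks (44.1%, 39.2% to 49.1%; 60.2% of all peaks) and 213 of the qPRO-seq 1M ones (24.2%, 21.5% to 27.1%; 44.1% of all peaks). Of its own 211 desert peaks, 171 were overlapped by the PRO-seq 1M list (81.0%, 75.2% to 85.8%; 91.2% of all peaks) and 203 by the qPRO-seq 1M list (96.2%, 92.7% to 98.1%; 96.6% of all peaks). The lists differ in length. Cut to equal length, the PRO-seq 1M list overlapped 56.3% of qPRO-seq 1M desert peaks and the qPRO-seq 250k list 54.9%.

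**Figure D1:**
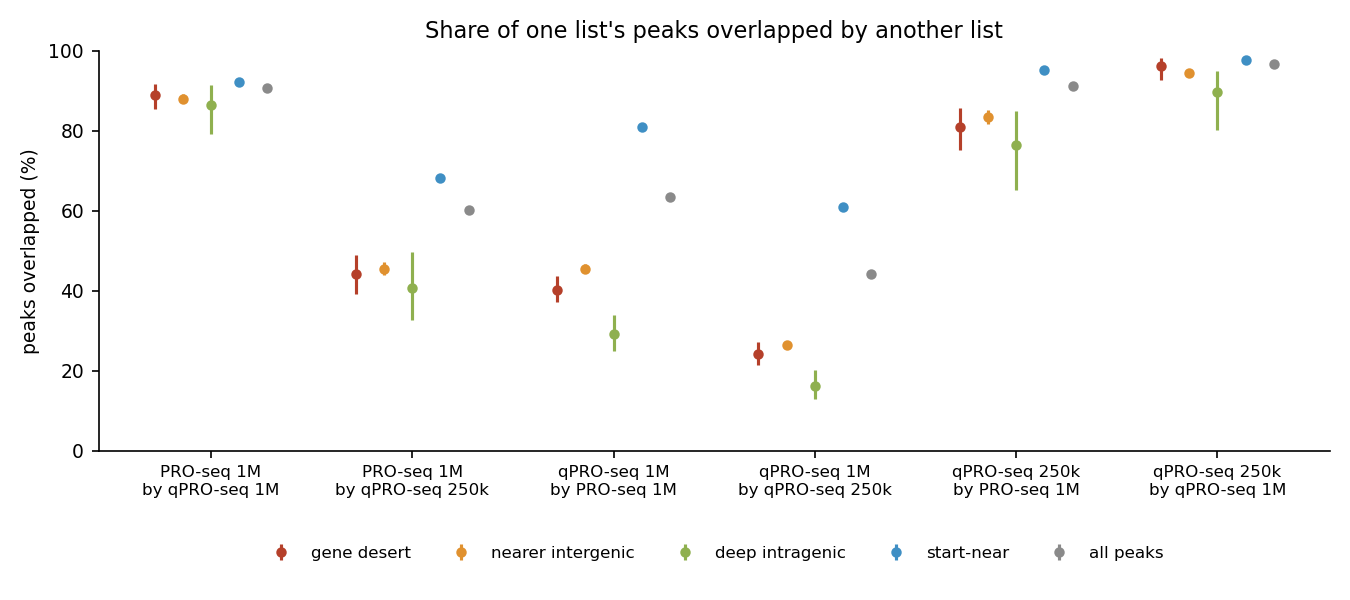
Share of the peaks of one list that another list overlaps, in percent, for 4 position classes and for all peaks; points are shares and bars are Wilson 95% intervals. Gene-desert peaks lie near the nearer intergenic ones in every pair, and start-near peaks lie above both where the qPRO-seq 1M peaks are tested (81.1% against 40.3% by the PRO-seq 1M list).

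Desert and nearer intergenic peaks of like score were compared in how often another list overlapped them. Within deciles of score, the share of qPRO-seq 1M peaks overlapped by the PRO-seq 1M list differed by -5.48 percentage points between the deserts and the nearer intergenic class (Newcombe-type interval -8.19 to -2.55). For overlap by the qPRO-seq 250k list the difference was -2.88 points (-5.13 to -0.17). For PRO-seq 1M peaks overlapped by the qPRO-seq 1M list it was 0.887 points (-3.25 to 3.43). Cut to equal list length, the first 2 differences were -2.635 and -1.499 points and the third 6.51, all with intervals that include 0 (for the third, -0.32 to 11.1), and without score deciles the second was -2.26 points with an interval that includes 0. Against start-near peaks of the same score decile, the difference for the qPRO-seq 1M desert peaks was -32.7 points by the PRO-seq 1M list (-35.3 to -29.9) and -24.7 points by the qPRO-seq 250k list (-26.9 to -22.1). Against peaks inside genes but more than 50 kb from a start, called deep intragenic, it was 7.41 points by the PRO-seq 1M list (2.67 to 12.05). By the qPRO-seq 250k list it was 4.14 points, with an interval that includes 0 (-0.299 to 8.19). The contrasts with start-near and deep intragenic peaks were not repeated at equal list length.

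Among desert peaks, score went with recovery. The shares by tercile were computed for desert peaks only, so they do not show a trait particular to deserts. In the lowest, middle and highest terciles of the qPRO-seq 1M list's scores, 17.0%, 36.3% and 83.6% of desert peaks were overlapped by the PRO-seq 1M list, and 7.55%, 16.2% and 61.5% by the qPRO-seq 250k list. Of the 68 PRO-seq 1M desert peaks in the highest tercile, 68 were overlapped by the qPRO-seq 1M list. By distance the pairs of lists differed. Of qPRO-seq 1M peaks 50 to 100, 100 to 200 and 200 to 500 kb from a start, 40.8%, 37.8% and 48.1% (26 of 54, 35.4% to 61.1%) were overlapped by the PRO-seq 1M list, and beyond 500 kb 2 of 8. Of PRO-seq 1M peaks in the same 3 bins, 47.1%, 40.6% and 29.6% (8 of 27, 15.9% to 48.5%) were overlapped by qPRO-seq 250k. Of qPRO-seq 250k peaks, 83.4%, 78.8% and 61.5% (8 of 13, 35.5% to 82.3%) were overlapped by PRO-seq 1M. The intervals of the bins overlap in each of these pairs.

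Of the 887 regions, 158 were in all 3 lists (17.8%, 15.4% to 20.5%, against 34.5% of all regions). Both 1M lists only held 158 (17.8%, against 18.3%), and qPRO-seq 1M alone held 489 (55.1%, 51.8% to 58.4%, against 37.0%). PRO-seq 1M alone held 41 (4.6%, against 6.1%), and qPRO-seq 250k alone 6 (0.68%, against 1.04%). Both qPRO-seq lists only held 34 (3.8%, against 2.5%), and PRO-seq 1M with qPRO-seq 250k 1 (0.11%, against 0.38%). Regions in all 3 lists had a median qPRO-seq 1M percentile of 83.7, and those in that list alone 26.0. Of the 158 regions in all 3 lists, 52 were above the median score in each list, a count given without its share over all regions.

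**Figure D2:**
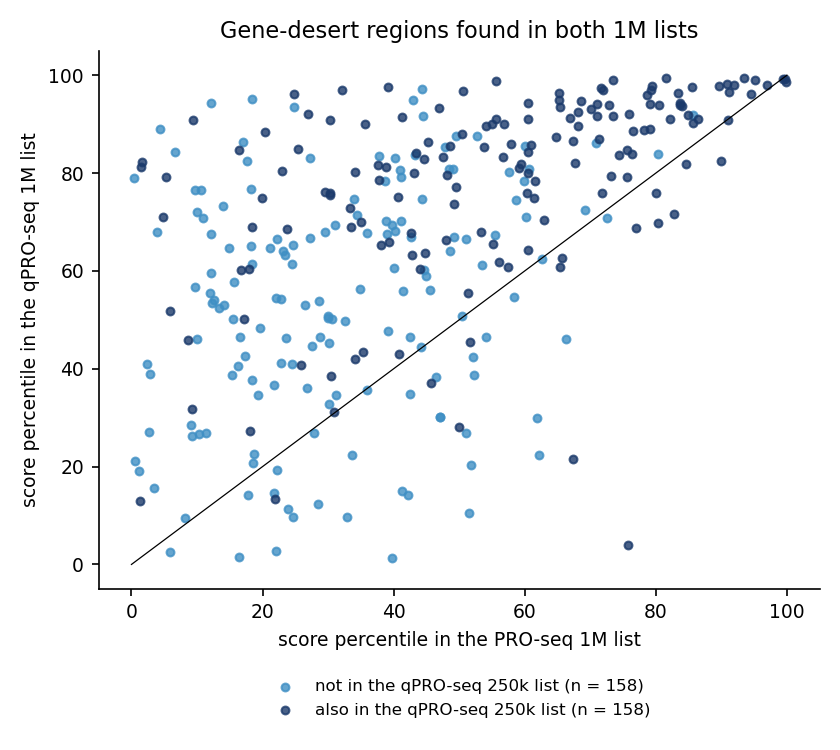
Score percentile of each of the 316 gene-desert regions found in both 1M lists, in the PRO-seq 1M list (x axis) and the qPRO-seq 1M list (y axis); the line marks equal percentiles. Regions also found in the qPRO-seq 250k list (dark points) sit mostly in the upper part; the lists differ in length, so a gap between the axes is not a change in signal.

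Above percentile 90 of their own list lay 2.8%, 7.6% and 6.2% of desert peaks, against 4.3%, 6.2% and 6.2% of nearer intergenic peaks. No count over all regions is given for all 3 lists at once, where 5 desert regions were above percentile 90. They lay on chromosome 1 between PLXNA2 and CAMK1G, on chromosome 4 between FAT4 and INTU, on chromosome 6 between VEGFA and C6orf223 and between NOX3 and ARID1B, and on chromosome 8 between IL7 and STMN2. VEGFA encodes the main angiogenic growth factor, ARID1B a subunit of the BAF chromatin remodeller, and IL7 a cytokine of lymphocytes. The region between FAT4 and INTU (chr4:126955551-126956570) had percentiles of 99.9, 98.5 and 97.2 and lay 71.7 kb from the nearest start, 1462.6 kb beyond FAT4, a large cadherin. The region beyond VEGFA (chr6:43910241-43911240, 123.8 kb away) had 95.1, 98.9 and 98.5. Neither VEGFA's neighbour C6orf223 nor FAT4 had a peak within 500 bp of a start in these lists, whereas VEGFA had one in each.

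The 8 regions in all 3 lists with the highest qPRO-seq 1M scores include 3 of those 5. The first was chr20:51338211-51339270, between KCNG1 and NFATC2, a calcium-regulated transcription factor of immune cells. Its percentiles were 93.5, 99.5 and 7.62, so the smallest input ranked it near the bottom. The region chr3:193896831-193897700, between OPA1 and HES1, a Notch target, showed 73.5, 99.1 and 18.2. By contrast chr4:106524561-106525290, between GIMD1 and the Wnt antagonist gene DKK2, had 81.5, 99.4 and 93.2, with no start peak at either gene in any list. The region chr3:156605391-156606560 had 99.8, 99.3 and 82.9 and lay 50.2 kb from SSR3, just inside the rule. Another of the 8, chr4:34334821-34335830, lay 3188.0 kb from PCDH7 and 1612.4 kb from ARAP2, and had 55.7, 98.9 and 83.0.

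The farthest region in at least 2 lists, chr5:49601421-49602160, lay 809.8 kb from the nearest start, that of EMB, and was in both 1M lists at percentiles of 30.0 and 50.3. The next was chr22:11974031-11974440, 628.0 kb away and in all 3 lists at 62.9, 70.4 and 42.1. It lies in the proximal part of chromosome 22, where 7 regions fell before OR11H1. Near-identical copies there can share reads, and the placement of reads was not tested. On chromosome 3, chr3:84304051-84304690 between GBE1 and CADM2 lay 367.0 kb from any start and was in all 3 lists at 79.3, 96.9 and 86.9. The other 2 were chr3:93470201-93470880, 372.9 kb away and in both 1M lists, and chr6:91053071-91053410, 339.6 kb away and in all 3.

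Regions found in 1 list alone had median percentiles of 12.5, 26.0 and 14.5 in that list, and the strongest differed in kind. In the qPRO-seq 1M list, chr7:86441021-86441710, 202.2 kb from GRM3, reached percentile 92.3, and the nearest PRO-seq 1M peak was 617770 bp away. In the PRO-seq 1M list, chr21:19493421-19493790 reached 64.7, but a qPRO-seq 1M peak lay 180 bp from it. In the qPRO-seq 250k list the top region, chr6:26800121-26800310 at percentile 26.97, is the one at TRM-CAT5-2.

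The regions fell into 446 intervals between neighbouring protein-coding genes; 245 held 1 region, and 26 held at least 5, with 175 regions in all (19.7%). The fullest was FAT4 to INTU with 13 regions, 3 of them in all 3 lists, spread over 1129.0 kb. CDC73 to KCNT2 on chromosome 1 held 10 over 1983.0 kb. NPVF to NFE2L3 on chromosome 7 also held 10, but within 64.9 kb of a 923.8 kb interval, and 8 of them formed the largest cluster, 30.4 kb long (chr7:25832951-25863400). NFE2L3 encodes a CNC-type transcription factor related to NFE2 and had a start peak in each list, whereas NPVF, a neuropeptide gene, had none. EDEM1 to GRM7 held 9, none of them in all 3 lists, and MTCL1 to NDUFV2 and NCAM2 to MRPL39 held 8 each.

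**Figure D3:**
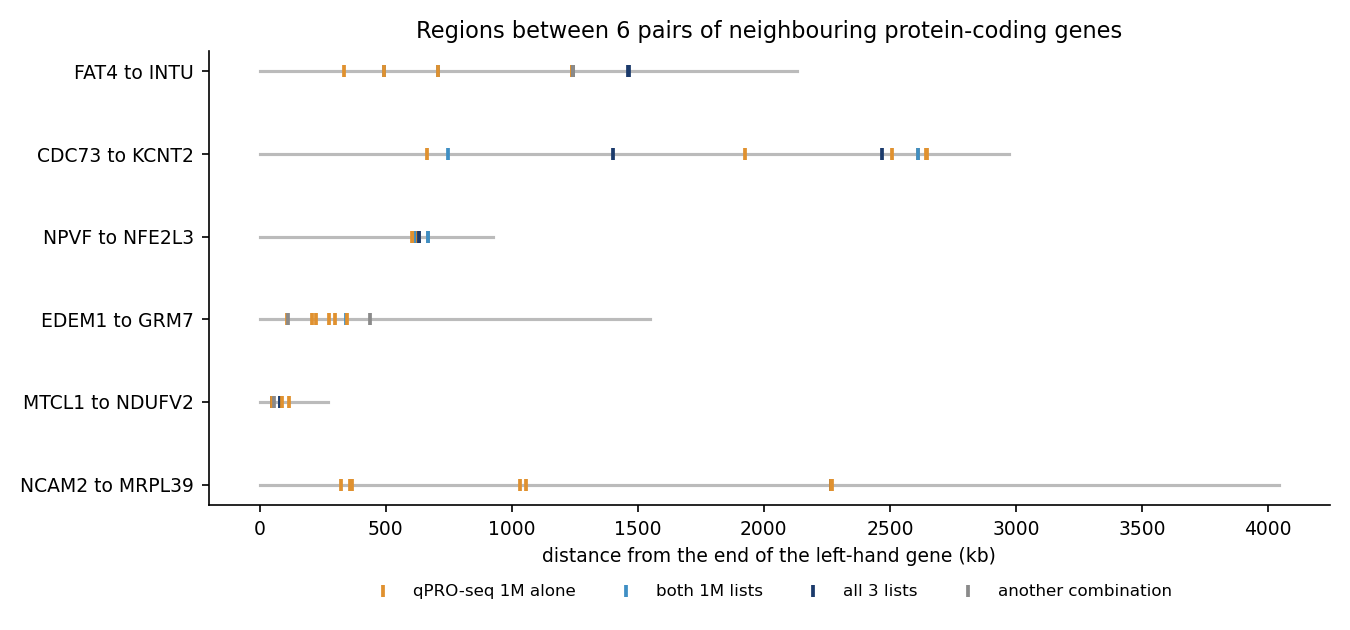
Position of the gene-desert regions between 6 pairs of neighbouring protein-coding genes, in kb from the end of the left-hand gene; grey lines run from gene to gene and ticks are regions, coloured by the lists that hold them. The 10 regions between NPVF and NFE2L3 sit within 64.9 kb, whereas the 8 between NCAM2 and MRPL39 spread over 1946.8 kb.

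Among regulators of blood cell development, 5 of 44 listed genes flanked a desert region, against 4.29% of all protein-coding genes (851 of 19849 by name). BACH2, a repressor that acts in lymphocytes, bordered 7 regions, of which chr6:90458111-90458810 was in all 3 lists at percentiles of 71.6, 97.5 and 95.8. The oncogene MYC bordered 4 and LMO2, a partner of TAL1 and GATA1 in erythroid cells, bordered 3. The receptor gene KIT bordered 3, all found by qPRO-seq 1M alone. LMO4 bordered 3, and 1 of them, chr1:87576081-87577410, ranked at 75.8 in the PRO-seq 1M list and at 3.89 and 2.86 in the others. All 5 genes had a start peak in both 1M lists, and BACH2, LMO4 and MYC had one in the qPRO-seq 250k list. Over all protein-coding genes the shares were 52.9%, 54.5% and 44.0% in the order of the lists, and 5 genes allow a description only.

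From a list of 56 developmental regulators chosen as lying beside gene deserts, 16 flanked a desert region (28.6%), a share that the choice itself favours. They bordered 28 regions, of which 21 were found by qPRO-seq 1M alone and 2 by all 3, where these classes hold 55.1% and 17.8% of all desert regions. The 2 lay beside SPRY2, an inhibitor of receptor tyrosine kinase signalling, and ZEB1, a zinc-finger repressor. The region by ZEB1 is the one at LOC105376483, 184.2 kb from ZEB1, at percentiles of 76.5, 88.6 and 70.6. TFAP2A, a factor of neural crest and skin, bordered a region 78.5 kb away at percentiles of 44.3 and 97.2 in the 1M lists. SALL3 and TFAP2B bordered 4 regions each, with no start peak in any list. Of the 16 genes, 7 had a start peak by qPRO-seq 1M and 6 in each of the others. The gene lists were not matched for the length of the flanking interval.

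The flanking genes as a whole had a start peak somewhat less often than all protein-coding genes in each list. The interval lay below the genome-wide share for qPRO-seq 1M and included it for the others. A start peak stood at 224 of 456 flanking genes of the PRO-seq 1M regions (49.1%, 44.6% to 53.7%), against 52.9% of all protein-coding genes. For the qPRO-seq 1M regions it was 422 of 831 (50.8%, 47.4% to 54.2%; 54.5% of all genes), and for the qPRO-seq 250k regions 123 of 298 (41.3%, 35.8% to 46.9%; 44.0% of all genes). Neither flanking gene had a start peak at 22.9%, 21.6% and 31.2% of the regions of the 3 lists. The same share was not computed for pairs of neighbouring genes in general, so these values do not show a trait of deserts. The nearest protein-coding gene lay a median of 138.4, 137.1 and 139.7 kb away.

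Desert peaks were unevenly spread over chromosomes. Chromosome 6 held 56, 122 and 30, and its density of 3.89 per megabase of desert sequence in the qPRO-seq 1M list (exact Poisson interval 3.23 to 4.65) was the highest of the 23 chromosomes. Chromosome 7 followed with 3.19 (2.50 to 4.01) and chromosome 10 with 2.88 (2.20 to 3.70). These 3 were also the densest in the PRO-seq 1M list, at 1.79, 1.57 and 1.51. At the other end, chromosome 17 held 1 desert peak in the qPRO-seq 1M list in 8.09 Mb, and X held 32 in 37.0 Mb (0.865, 0.591 to 1.22). Copy number along the K562 genome was not used here.

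**Figure D4:**
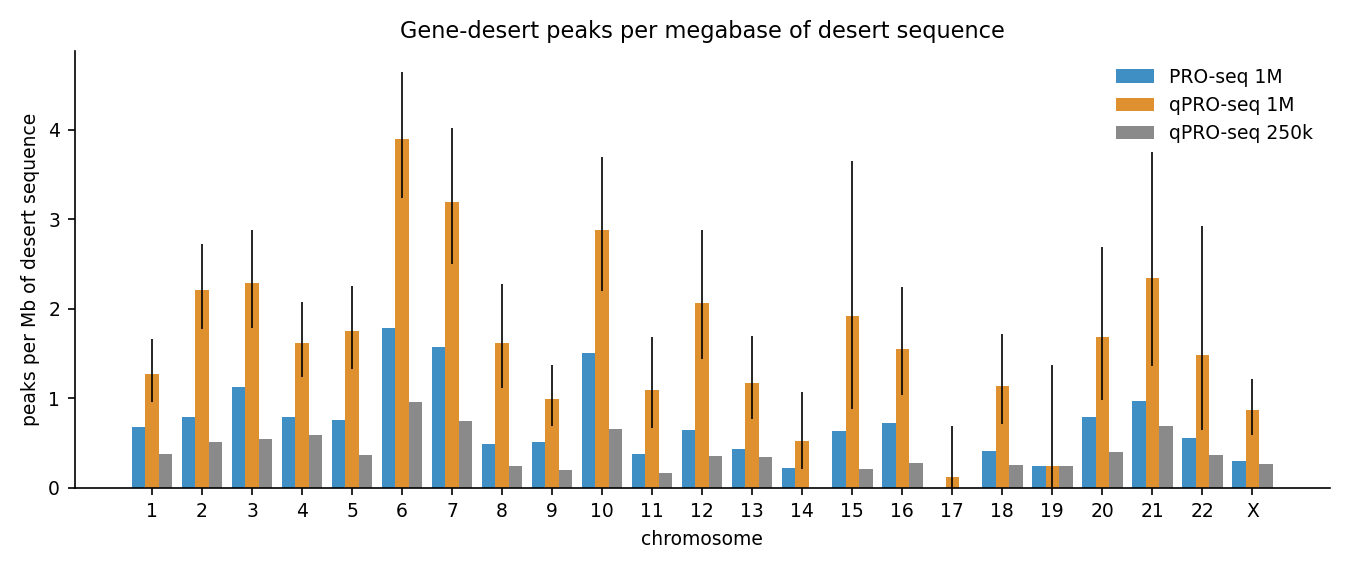
Gene-desert peaks per megabase of sequence that is outside genes and over 50 kb from any start, for each chromosome and list; bars start at 0, and lines on the qPRO-seq 1M bars are exact Poisson 95% intervals. Chromosomes 6, 7 and 10 stand highest in both 1M lists, and 17 and 19 hold 1 qPRO-seq 1M peak each.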

How the data were processed

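The deposited files were lists of dREG peaks, 1 for each group of 2 libraries. The score of each peak is the authors' own, as deposited, has no fixed unit and was used only to rank peaks within its list. Its p-value is also as deposited, and whether it was adjusted is not stated. The submitters' processing notes name fastp 0.20.0, Bowtie2 2.3.5.1, UMI-tools and deepTools 3.1.3 and the build hg38; dREG's version and thresholds and the pooling of replicates are not given in the sources used here. The lists hold no counts, so depth is unknown.

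Peaks were classed against GENCODE release 29 in Python 3.11.15 with numpy 2.4.6 and pandas 2.3.3. A peak counted as overlapped from 1 bp. Shares have Wilson intervals and differences Newcombe intervals, combined over 10 score deciles with weights from the desert peaks, and the functions were tested on simulated data. No p-value was computed between groups. Named regions are the 8 highest-scored in the qPRO-seq 1M list among those in all 3 lists, the 5 farthest in at least 2 lists, the top of each list's private regions, the 5 fullest gene-to-gene intervals (a tie made 6) and those beside the listed regulators; those above percentile 90 and others beside them were chosen after their values were seen. The members and lists were chosen with earlier results of these data known. RefSeq genes and start windows, on GRCh38.p14, were matched by position; start windows of chromosome 8 were not used here. Planned measures of GC content and motifs in the peaks themselves were not run, since no genome sequence was used here.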

Additional observations from a re-analysis of the deposited data

How the results depend on the processing

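No paired analysis was possible because each group has 1 list that merges both replicates, and for the same reason no replicate could be left out. Values below keep the order of lists of the report. The distance limit set the counts: 861, 1988 and 438 desert peaks at 25 kb (3.48%, 5.21% and 2.81% of each list) and 131, 295 and 66 at 100 kb (0.530%, 0.773% and 0.424%). Against protein-coding genes alone they were 1964, 4181 and 1081 (7.95%, 10.9% and 6.95%). Keeping only peaks from the median score upwards left 127, 362 and 76 (1.03%, 1.90% and 0.977%), and equal list length 197, 286 and an unchanged 211 (1.27% and 1.84% for the first 2). The largest share was that of qPRO-seq 1M under each of these settings. Merging peaks within 500 bp, or leaving out RefSeq genes (chosen after seeing the data), kept each count within 1.5 times.

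Overlap shares moved most with list length and with the overlap required. At equal length, PRO-seq 1M desert peaks were overlapped at 81.2% by qPRO-seq 1M and 64.0% by qPRO-seq 250k, qPRO-seq 1M ones at 56.3% by PRO-seq 1M and 54.9% by qPRO-seq 250k, and qPRO-seq 250k ones at 62.1% by PRO-seq 1M and 76.8% by qPRO-seq 1M. With at least 50% of both peaks required, the same shares were 76.3%, 36.9%, 33.5%, 18.7%, 67.8% and 78.2%. With the same score limit, PRO-seq 1M overlapped 33.7% of the qPRO-seq 1M ones and 75% of the qPRO-seq 250k ones, and at 100 kb qPRO-seq 250k overlapped 38.2% of the PRO-seq 1M ones.

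The difference from nearer intergenic peaks in the share of PRO-seq 1M peaks overlapped by qPRO-seq 1M turned to -0.805 points at 100 kb and -2.03 with 50% of both peaks required, and was 6.51 (-0.32 to 11.1) at equal list length, against 0.887 as reported; these intervals include 0. At equal list length the 2 differences of qPRO-seq 1M peaks were -2.635 and -1.499 points and no longer excluded 0, nor did the second without score deciles (-2.26). Of 90 alternatives, 42 stayed within 1.5 times the count, within the interval of the share, or on the same side of 0 with the same call. The cause of these shifts was not tested. GC content and motifs in the peaks were not run. Depth, unknown here, limits every count, and with 1 list per group no difference between protocols can be separated from one between libraries.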
